A study of Mus musculus with 10 samples.

Results

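The 9 genes described here encode receptors, adaptors and the kinases and ubiquitin-like protein that work with them in mitophagy: Pink1, Bnip3, Bnip3l, Fundc1, Phb2, Optn, Sqstm1, Map1lc3b and Tbk1. They were taken by symbol from the 54532 genes of the count files, and each symbol matched 1 gene. All 9 were among the 18329 genes with enough reads to be tested. The samples came from the cochlea, the hearing organ of the inner ear, of 12-month-old mtKeima mice. Keima is a coral-derived fluorescent protein whose excitation depends on pH, and mtKeima mice carry it in the mitochondria, so that both groups shared this reporter of mitophagy. The transgene was on a mixed genetic background, the mice were genotyped as wild type for Cdh23 and Nnt, and the promoter that drives the transgene is not given in the sources used here. In the NR group, 5 samples came from mice given nicotinamide riboside, a precursor of NAD+, in the drinking water at 7 mg/ml (24 mM) for 10 months from 2 months of age. In the Vehicle group, 5 samples came from non-treated mice on regular water. Each sample is described here as 1 mouse.

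Mitophagy delivers whole mitochondria to the lysosome through an autophagosome. On mitochondria that lose membrane potential, PINK1 accumulates and phosphorylates ubiquitin, the Parkin ubiquitin ligase amplifies that mark, and adaptors such as optineurin and p62 link the ubiquitin to LC3 on the forming autophagosome. BNIP3, NIX, FUNDC1 and prohibitin 2 are instead mitochondrial membrane proteins that bind LC3 themselves, and much of this control is known to act on protein stability, localization and phosphorylation, which RNA counts do not measure.

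The total count lay between 17060379 and 22931581 in the NR mice and between 20004667 and 24419230 in the Vehicle mice. Levels are given as CPM, the read count divided by the library total scaled by edgeR's TMM factor, and so are relative to the other RNA of the sample. All libraries went against the sex given in the labels, which is female, while the study's methods describe male mice: Xist lay between 0.09 and 0.41 CPM and the Y-linked Ddx3y between 64.5 and 85.0 CPM over the 10 mice. Fundc1 is X-linked, and the other 8 genes are autosomal. Markers of the cochlea were detected, but the tissue content differed between mice. The summed level of 8 skeletal muscle markers ran from 24.3 to 948 CPM in NR and from 21.2 to 91.7 CPM in Vehicle, with 948 in NR 3 and 789 in NR 5, and 7 of the 8 were higher in NR at an unadjusted p of 0.05 or less. Of 6 tested adipocyte markers 5 were higher, with sums of 68.3 to 195 CPM against 16.9 to 63.1 CPM. Of 6 stria vascularis markers 4 were lower, with sums of 958 to 1496 CPM against 1310 to 2894 CPM, as were 4 of 5 cochlear matrix markers, with sums of 3068 to 4631 CPM against 3285 to 5995 CPM. Of all tested genes, 4.83% were higher and 4.88% lower at that unadjusted p (edgeR). At an adjusted p of 0.05, 0 of all tested genes passed, so none of these markers did. Of the marker lists of hair cells, Schwann cells, erythroid cells, B cells and neutrophils, 0 genes passed the unadjusted threshold, and 1 gene each of the neuron and bone lists was higher. The estimates of all 7 hair cell markers were nonetheless lower in NR, with a median log2 fold change (NR minus Vehicle) of -0.51. Their sums were 117 to 213 CPM in NR and 123 to 373 CPM in Vehicle. Estimates were also lower for all 7 erythroid and all 5 B cell markers, and higher for all 4 Schwann cell and 6 of 7 neutrophil markers. No listed marker of these tissues was at 0 in every mouse. In such bulk samples, fewer cells of a type and less RNA per cell cannot be told apart, and the part of tissue content in the values below was not tested beyond leaving out NR 3 and NR 5.

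None of the 9 mitophagy genes passed a test of a difference between NR and Vehicle. With edgeR's quasi-likelihood test, 0 of the 9 passed an unadjusted p of 0.05, against 9.71% of all tested genes, and 0 passed at a Benjamini-Hochberg adjusted p of 0.05, where the share of all tested genes was also 0%. The DESeq2 Wald test called 0 of the 9 by either threshold, against 6.58% of all genes unadjusted and 0.539% adjusted, and its lowest unadjusted p among the 9 was 0.125. No gene of the 9 had NR and Vehicle values that did not overlap, which was so for 1.65% of all tested genes, 0.769% with NR higher and 0.878% with NR lower. The point estimates were positive for 4 genes and negative for 5, with a median log2 fold change (NR minus Vehicle) of -0.00, beside -0.01 over all tested genes. The median size of the log2 fold change, regardless of sign, was 0.04 for the 9 genes and 0.11 over all tested genes, which were not matched for level.

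**Figure D1:**
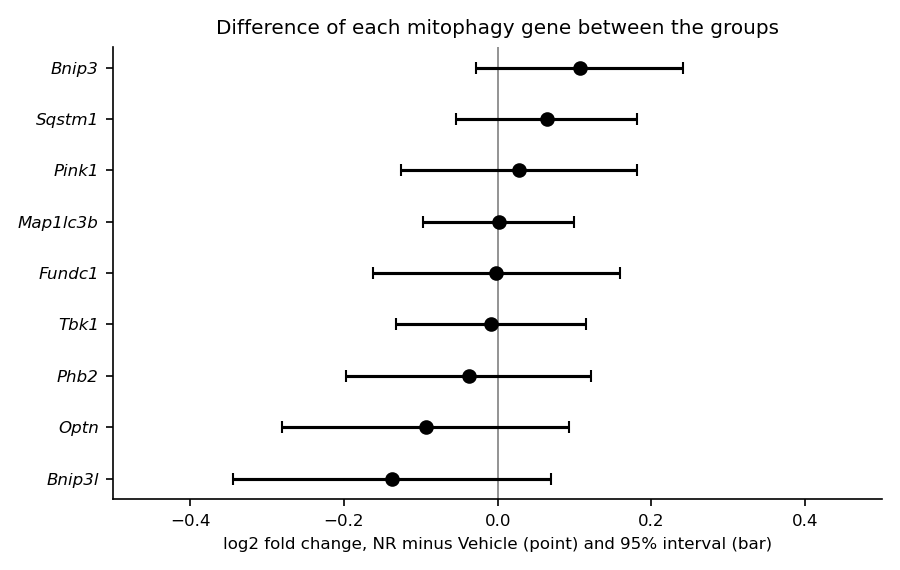
Estimated log2 fold change of each of the 9 mitophagy genes (vertical axis) between NR and Vehicle on the horizontal axis, from edgeR, with 95% intervals as bars (n = 5 mice per group). Every interval includes 0, and the outermost bounds are -0.34 for Bnip3l and 0.24 for Bnip3.

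The 95% intervals give the differences that the values allow. Over the 9 genes, they reached, as a percent change in NR, from -21.2% for Bnip3l to 18.2% for Bnip3. A p above the threshold does not show that the levels were the same. The counts behind each value were high, between 809 and 12262 reads per gene and mouse, and the spread between mice was small. The median coefficient of variation of the 9 genes was 6.52% in NR and 5.58% in Vehicle, beside 11.4% and 14.1% over all tested genes. That comparison was not matched for level: the share of tested genes with a higher level ran from 1.05% for Sqstm1 to 29.3% for Bnip3.

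**Figure D2:**
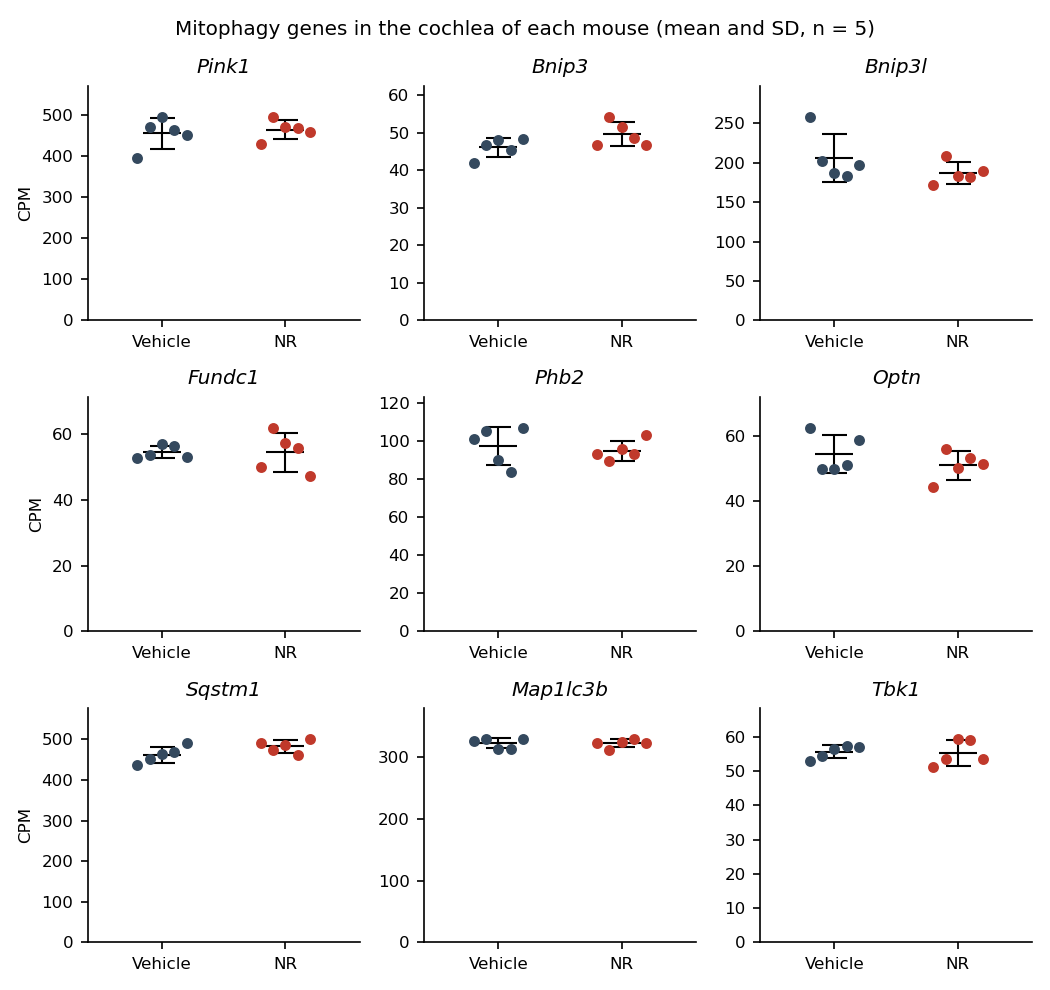
Level of each mitophagy gene in CPM (vertical axes, from 0) in each Vehicle and NR mouse (points, ordered by replicate number), with the mean and SD as bars (n = 5 per group). The groups overlap in every panel, and Vehicle 1 is the highest point for Bnip3l at 259 CPM.

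Pink1 encodes the kinase that starts the ubiquitin-dependent route, and by the gene length in the files it had the highest level per kilobase of the 9 genes, while by principal transcript length Sqstm1 was higher. It lies at chr4:138313409-138326307 on the minus strand (GRCm38, as are all coordinates here unless said otherwise). Its level was 429.8, 495, 470.1, 468 and 458 CPM in NR mice 1 to 5 and 395, 471, 496, 462 and 452 CPM in Vehicle mice 1 to 5. All NR values lay within the Vehicle range, whose lowest value was Vehicle 1 and whose highest was Vehicle 3. The means were 464 ± 23.8 CPM in NR and 455 ± 37.3 CPM in Vehicle (SD, n = 5), and the log2 fold change was 0.03 (SE 0.07, interval -0.13 to 0.18, edgeR adjusted p = 0.909).

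Bnip3 and Bnip3l encode BNIP3 and NIX, related receptors of the mitochondrial outer membrane. Bnip3 is a known target of hypoxia-inducible factor, and Bnip3l is known for clearing mitochondria from maturing red blood cells. Bnip3, at chr7:138890836-138909519 on the minus strand, was measured at 46.8, 54.3, 51.5, 48.7 and 46.8 CPM in NR mice 1 to 5 and at 42.0, 46.7, 48.1, 45.4 and 48.3 CPM in Vehicle mice 1 to 5. NR mice 2, 3 and 4 lay above every Vehicle mouse and Vehicle mice 1, 2 and 4 below every NR mouse, while the remaining mice overlapped. With means of 49.6 ± 3.24 CPM and 46.1 ± 2.57 CPM (SD, n = 5), its log2 fold change of 0.11 (SE 0.06, interval -0.03 to 0.24) was the highest estimate of the 9, and it did not pass (edgeR unadjusted p = 0.108, adjusted p = 0.595). The two-sided exact permutation test over the 252 labelings gave p = 0.0873, the lowest of the 9 genes tested this way, where the smallest possible p is 0.00794. The exons of Bnip3 overlap Gm45507 on the opposite strand over 504 bases, 22.3% of its counted length, and Gm45507 was at 0 CPM in every mouse. Counting in the default mode ignores strand, so reads from the shared bases cannot be assigned to either gene, also with Gm45507 at 0 CPM.

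ACGTG, a form of the core of the hypoxia response element, was searched on both strands in the 250 bases before the transcription start. Other forms of the core were not searched. The search covered the 8 genes that have a promoter window in the RefSeq table used (GRCm38.p6), all but Bnip3l. ACGTG was found for Bnip3 and Phb2, and in 16.6% of all 32851 promoter windows of the same length. These windows are shown because they are the only ones of the 8 with a match, 5′ to 3′ on the strand of the gene, with the match on either strand in capitals. The search used all 250 bases of each window, also where the files place them inside the gene. That holds for the whole Fundc1 window and for part of those of Bnip3, Pink1, Sqstm1 and Map1lc3b. The Bnip3 window is printed without its last bases, which lie inside the gene as the files place it, so that 237 bases are shown. The printed stretches cover chr7:138909520-138909756 on the minus strand for Bnip3 and chr6:124712039-124712288 on the plus strand for Phb2.
Bnip3: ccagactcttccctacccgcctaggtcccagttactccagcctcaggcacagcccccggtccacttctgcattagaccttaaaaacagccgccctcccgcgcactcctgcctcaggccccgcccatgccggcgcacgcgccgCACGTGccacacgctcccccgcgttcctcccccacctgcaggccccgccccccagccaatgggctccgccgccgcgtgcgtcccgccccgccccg
Phb2: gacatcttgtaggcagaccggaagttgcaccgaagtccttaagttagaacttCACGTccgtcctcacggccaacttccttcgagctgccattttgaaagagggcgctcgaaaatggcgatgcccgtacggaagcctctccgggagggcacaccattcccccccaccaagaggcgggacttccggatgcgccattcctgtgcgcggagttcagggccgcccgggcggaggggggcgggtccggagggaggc
In the Bnip3 window, the match is the palindrome CACGTG, the E-box sequence, in which ACGTG reads on both strands with overlap, and which was found in 6.02% of all windows. GGGCGG, the core of the GC box, was present in 7 of the 8 windows, all but that of Fundc1, and in 32.7% of all windows. TATAAA was in 0 of the 8 and 12.4% of all windows. A match describes the letters and not a bound site.

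Bnip3l, at chr14:66985239-67008877 on the minus strand, had 172, 209, 183, 182 and 189.6 CPM in NR mice 1 to 5 and 259, 202, 187, 183 and 198 CPM in Vehicle mice 1 to 5. Vehicle 1 stood above the other 9 mice, and the other 4 Vehicle mice lay within the range of the NR mice. The means were 187 ± 13.7 CPM in NR and 206 ± 30.5 CPM in Vehicle (SD, n = 5), and the log2 fold change of -0.14 (SE 0.09, interval -0.34 to 0.07) did not pass (edgeR unadjusted p = 0.172, adjusted p = 0.656). Without Vehicle 1, it was -0.04 (SE 0.06, edgeR unadjusted p = 0.584).

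Vehicle 1 was also the mouse with the most erythroid RNA. The summed level of 7 erythroid markers, which include the adult globins, was 17854 CPM in Vehicle 1, between 4110 and 12028 CPM in the other Vehicle mice and between 7381 and 13026 CPM in the NR mice. None of the 7 was at 0 in every mouse, and none differed between the groups at an unadjusted p of 0.05 (edgeR), the median of their log2 fold changes being -0.14. The Vehicle mice had the same order in both, from Vehicle 1 through Vehicle 2, 5 and 3 to Vehicle 4, with sums of 17854, 12028, 11196, 7515 and 4110 CPM. Among the NR mice, NR 1 was lowest in both, and NR 2 and NR 5 were the highest in both but in the opposite order, with sums of 11315 and 13026 CPM. The part of erythroid RNA in the Bnip3l values was not tested.

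**Figure D3:**
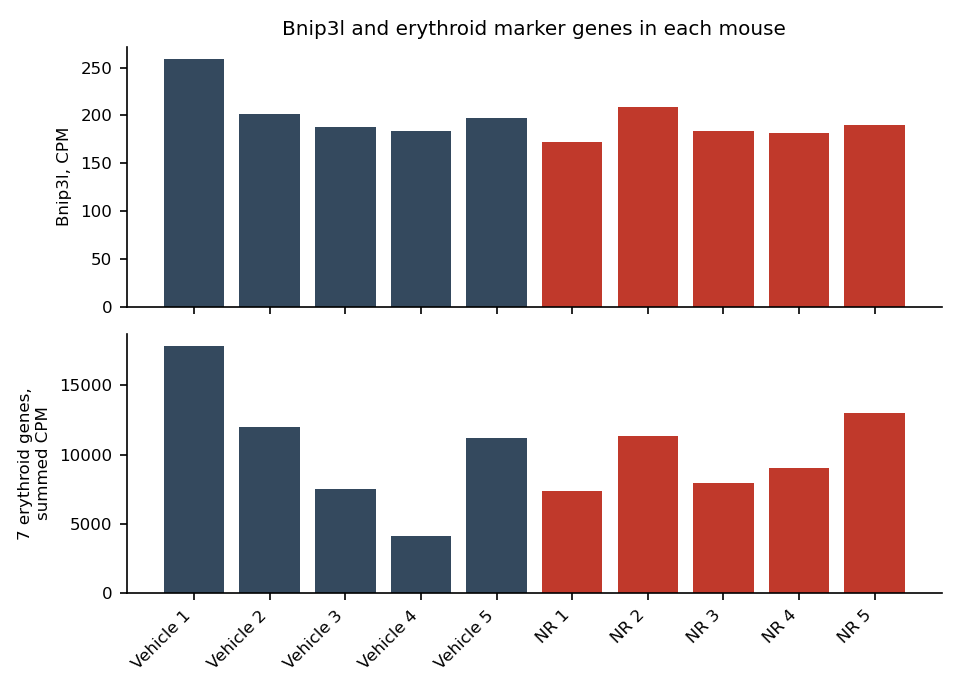
Bnip3l in CPM (upper bars) and the summed CPM of 7 erythroid marker genes (lower bars) in each mouse, Vehicle in dark blue and NR in red. Vehicle 1 has the highest bar in both panels, 259 CPM and 17854 CPM.

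Fundc1 encodes a further outer-membrane receptor, which is known for hypoxia-induced mitophagy, and lies at chrX:17556564-17572325 on the minus strand. Its level was 50.1, 62.0, 57.2, 55.7 and 47.2 CPM in NR mice 1 to 5 and 52.7, 53.7, 56.9, 56.3 and 53.1 CPM in Vehicle mice 1 to 5. The Vehicle mice lay close together, inside the wider range of the NR mice, 2 of which were above and 2 below all Vehicle mice. The means were 54.5 ± 5.86 CPM and 54.5 ± 1.94 CPM (SD, n = 5), with a log2 fold change of -0.00 (SE 0.07, interval -0.16 to 0.16, edgeR adjusted p = 0.996), and a difference in spread was not tested.

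Phb2, at chr6:124712336-124716950 on the plus strand, encodes prohibitin 2, a scaffold of the inner membrane that binds LC3 once the outer membrane is ruptured. It was measured at 93.2, 89.7, 96.1, 93.1 and 103 CPM in NR mice 1 to 5 and at 101, 105, 90.3, 84.1 and 107 CPM in Vehicle mice 1 to 5. The NR values lay within the Vehicle range, which ran from Vehicle 4 to Vehicle 5. The means were 95.1 ± 5.21 CPM and 97.6 ± 10.0 CPM (SD, n = 5), and the log2 fold change was -0.04 (SE 0.07, interval -0.20 to 0.12, edgeR adjusted p = 0.877).

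Optn and Sqstm1 encode optineurin and p62, adaptors that bind ubiquitin with one domain and LC3 with another. Optn, at chr2:5020642-5064051 on the minus strand, was at 44.2, 56.1, 50.2, 53.4 and 51.5 CPM in NR mice 1 to 5 and at 62.6, 50.0, 50.1, 51.1 and 58.8 CPM in Vehicle mice 1 to 5. Vehicle 1 and Vehicle 5 were above every NR mouse, NR 1 was below every Vehicle mouse, and the others overlapped. The means were 51.1 ± 4.44 CPM and 54.5 ± 5.85 CPM (SD, n = 5), with a log2 fold change of -0.09 (SE 0.08, interval -0.28 to 0.09, edgeR adjusted p = 0.728). Without Vehicle 1, the mouse with the highest Optn, it was -0.03 (SE 0.08, edgeR unadjusted p = 0.683).

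Sqstm1, at chr11:50199366-50210827 on the minus strand, was at 491, 474, 485, 463 and 502 CPM in NR mice 1 to 5 and at 437, 451, 463, 468 and 490.3 CPM in Vehicle mice 1 to 5. Vehicle 1 and Vehicle 2 were below every NR mouse and NR 1 and NR 5 above every Vehicle mouse. The means were 483 ± 15.2 CPM and 462 ± 19.8 CPM (SD, n = 5), and the log2 fold change of 0.06 (SE 0.05, interval -0.05 to 0.18) did not pass (edgeR adjusted p = 0.706, two-sided exact permutation p = 0.111). Its counted length shares 580 bases, 17.3%, with exons of Mrnip on the opposite strand, which was at 2.64 to 4.05 CPM. Counting in the default mode ignores strand, so reads from the shared part cannot be assigned to either of them.

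Map1lc3b encodes LC3B, the ubiquitin-like protein that is coupled to lipid on the autophagosome membrane and that the receptors and adaptors bind. Located at chr8:121590361-121598760 on the plus strand, it was at 323, 312, 324, 330.0 and 323 CPM in NR mice 1 to 5 and at 325, 329, 313, 314 and 329 CPM in Vehicle mice 1 to 5. No mouse stood apart, and it was the least variable of the 9 genes, with a coefficient of variation of 2.04% in NR and 2.50% in Vehicle. The means were 322 ± 6.58 CPM and 322 ± 8.06 CPM (SD, n = 5), and the log2 fold change was 0.00 (SE 0.04, interval -0.10 to 0.10, edgeR adjusted p = 0.994). Only 1.23% of all tested genes had a smaller standard error, and the interval, as a percent change in NR, ran from -6.48% to 7.15%.

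Tbk1 encodes the kinase that phosphorylates optineurin and p62 and so raises their binding to ubiquitin and LC3. At chr10:121546455-121586787 on the minus strand, it was at 51.0, 53.5, 59.5, 59.1 and 53.5 CPM in NR mice 1 to 5 and at 52.8, 54.5, 56.4, 57.3 and 57.1 CPM in Vehicle mice 1 to 5. The Vehicle range lay inside the NR range, from NR 1 to NR 3. The means were 55.3 ± 3.76 CPM and 55.6 ± 1.93 CPM (SD, n = 5), with a log2 fold change of -0.01 (SE 0.06, interval -0.13 to 0.12, edgeR adjusted p = 0.973).

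Across the 9 genes, no mouse was high or low throughout. Vehicle 1 had the lowest Pink1, Bnip3 and Sqstm1 and the highest Bnip3l and Optn of the 10 mice. NR 1 had the lowest Bnip3l, Optn and Tbk1, and NR 2 the highest Bnip3 and Fundc1 with the lowest Map1lc3b. NR 3 and NR 5, the mice with the most skeletal muscle RNA, had the highest Tbk1 and the highest Sqstm1 with the lowest Fundc1, respectively, and no gene of the 9 passed an unadjusted p of 0.05 when both were left out.

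Compared per kilobase of the gene length in the files, the levels in Vehicle spanned from 170.4 CPM per kilobase for Pink1 to 14.2 for Tbk1. Pink1 was followed by Sqstm1 at 138, Bnip3l at 53.3 and Map1lc3b at 42.9 CPM per kilobase, and these 4 did not overlap one another in either group. Phb2 (26.3), Fundc1 (23.2) and Bnip3 (20.4 CPM per kilobase) came next. Phb2 and Fundc1 overlapped in both groups, and Fundc1 and Bnip3 in NR. Optn (14.5) and Tbk1 (14.2 CPM per kilobase) overlapped in both groups and changed places in NR. The order depends on the length used, and bases shared with exons of other genes were not taken out of the lengths. The files count all exons of a gene, 7517 bases for Map1lc3b, whose principal transcript in GENCODE M21 has 2532 bases. By principal transcript, an alternative chosen after the data were seen, Sqstm1 came first in Vehicle at 227 CPM per kilobase, before Pink1 at 192, Map1lc3b at 127, Phb2 at 74.1 and Bnip3l at 63.5, and Optn and Tbk1 stayed last at 20.9 and 18.4.

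**Figure D4:**
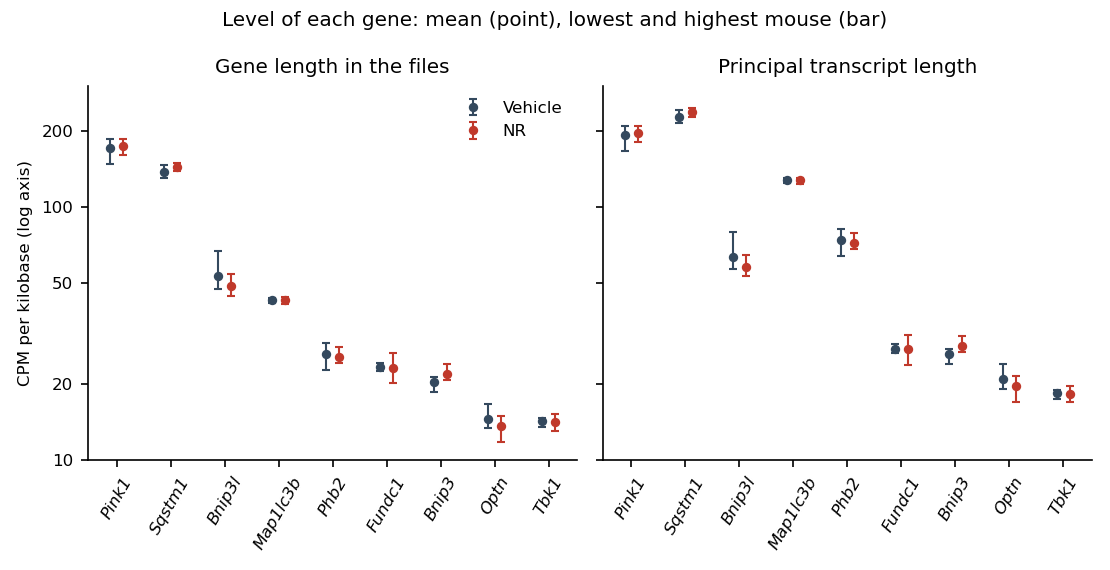
Level of the 9 genes in CPM per kilobase on a log axis, by the gene length in the files (left) and by principal transcript length (right). Points are means, and bars span the lowest to the highest of 5 mice, Vehicle in dark blue and NR in red. Pink1 is highest on the left (170.4 in Vehicle) and Sqstm1 on the right (227 in Vehicle).

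The neighbouring steps of the pathway were described by 7 lists with 98 genes, all of which were tested. At an unadjusted p of 0.05 (edgeR), 3 of them were higher in NR and 2 lower, which is 5.10% of the 98, beside 9.71% of all tested genes. The share of all tested genes was 4.83% for higher and 4.88% for lower. None passed at an adjusted p of 0.05 by edgeR, where the lowest adjusted p was 0.370, and 1, Adm, passed by DESeq2 (adjusted p = 0.00559). Of the 98 estimates 44 were positive and 54 negative, around a median of -0.02 on the log2 scale.

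**Figure D5:**
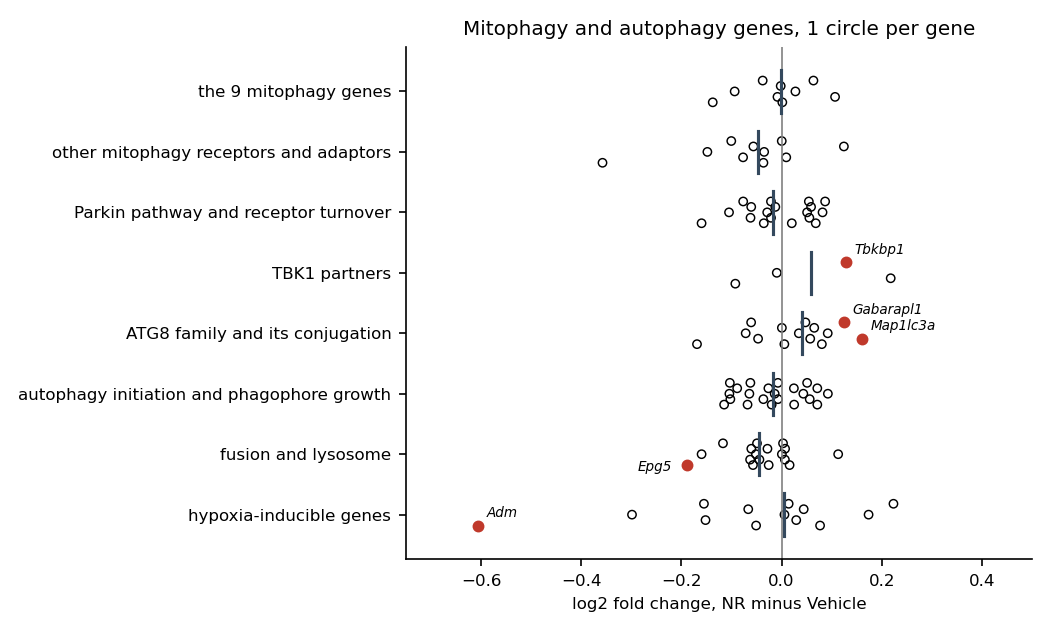
Log2 fold change between NR and Vehicle (horizontal axis) of the 9 mitophagy genes and of 98 genes in 7 lists (rows), 1 circle per gene, with the median of each row as a vertical line. The 5 genes at an unadjusted p of 0.05 or less are filled and named, 3 to the right and 2 to the left of 0, and Adm lies farthest out at -0.61.

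Of 14 genes of the ATG8 family and its conjugation, 2 were higher and 0 lower, with a list median of 0.04. Both encode relatives of LC3B. Map1lc3a, which encodes LC3A, was at 114, 106, 130.1, 118 and 124 CPM in NR mice 1 to 5 and at 105, 112, 105, 99.7 and 107 CPM in Vehicle mice 1 to 5. It was higher by 0.16 on the log2 scale (SE 0.06, edgeR unadjusted p = 0.0201, adjusted p = 0.464), with NR 3 and NR 5 the highest, and without both it was 0.10 (edgeR unadjusted p = 0.150). Gabarapl1, with the highest level per kilobase of the list, was higher by 0.12 (SE 0.05, edgeR unadjusted p = 0.0340, adjusted p = 0.483), and NR 5 at 321 CPM overlapped the Vehicle mice at 308 to 324 CPM. Without NR 3 and NR 5, Gabarapl1 still passed unadjusted, at 0.15 (edgeR unadjusted p = 0.0373, adjusted p = 0.914). The other 12 did not pass. Atg4a, a protease that processes ATG8 proteins, had the largest difference of the list at -0.17 (SE 0.21).

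Of 4 TBK1 partners, Tbkbp1, which encodes a TBK1-binding adaptor, was higher by 0.13 (SE 0.05, edgeR unadjusted p = 0.0369, adjusted p = 0.488), with 65.2 to 70.1 CPM in NR and 57.6 to 67.2 CPM in Vehicle. It did not pass without NR 3 and NR 5, at 0.15 (edgeR unadjusted p = 0.0682), and passed in 9 of the 17 alternatives. Ikbke, the kinase related to TBK1, differed by 0.22 (SE 0.23) and did not pass. The list median was 0.06. Of the 10 other mitophagy receptors and adaptors, 0 passed, and the median was -0.05. Among them, the receptor gene Fkbp8 was the highest per kilobase, with a difference of 0.01 (SE 0.05), and Chdh had the largest difference at -0.36 (SE 0.18, edgeR unadjusted p = 0.0713).

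Of 18 genes of the Parkin pathway and receptor turnover, 0 passed, with a median of -0.02. Vcp, which encodes an ATPase that extracts ubiquitylated proteins from the outer membrane, differed by 0.02 (SE 0.05). March5, a ubiquitin ligase of the outer membrane that acts on FUNDC1, had the largest difference of the list at -0.16 (SE 0.09, edgeR unadjusted p = 0.0947) and, like Bnip3l, its highest level in Vehicle 1, at 96.8 CPM against 65.9 to 79.3 CPM in the other 9 mice. Of 22 genes of autophagy initiation and phagophore growth, 0 passed, with a median of -0.02. Atg13, a subunit of the ULK1 complex, differed by -0.01 (SE 0.04), and Atg9a, which encodes a lipid scramblase on autophagy vesicles, by -0.11 (SE 0.09).

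Of 17 genes of fusion and lysosome, 1 was lower and 0 higher, with a median of -0.04. Epg5, a tether for the fusion of autophagosomes with lysosomes, was at 30.4 to 36.1 CPM in NR and 34.8 to 41.1 CPM in Vehicle, lower with a log2 fold change of -0.19 (SE 0.07, edgeR unadjusted p = 0.0211, adjusted p = 0.466). Without NR 3 and NR 5, Epg5 did not pass, at -0.16 (edgeR unadjusted p = 0.0917). Ctsd, the lysosomal protease cathepsin D and the highest per kilobase of the list, differed by -0.05 (SE 0.09).

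Of 13 hypoxia-inducible genes, listed because Bnip3 shares their regulator, 1 was lower and 0 higher, with a median of 0.01. Adm, which encodes the vasodilator peptide adrenomedullin, was at 9.78, 9.84, 8.91, 13.1 and 7.93 CPM in NR mice 1 to 5 and at 14.2, 14.0, 16.2, 15.3 and 15.9 CPM in Vehicle mice 1 to 5. Every NR mouse lay below every Vehicle mouse, which was so for 0.878% of all tested genes in this direction and for no other of the 98. The log2 fold change was -0.61 (SE 0.13, edgeR unadjusted p = 6.49e-04, adjusted p = 0.370), and it was -0.46 (edgeR unadjusted p = 0.00703) without NR 3 and NR 5. The stria vascularis and cochlear matrix markers were lower in NR too, and their part in the value of Adm was not tested. Pgk1, the glycolytic enzyme phosphoglycerate kinase and the highest per kilobase of the list, differed by -0.07 (SE 0.06), and Bnip3 by 0.11 in the other direction from Adm.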

How the data were processed

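RNA-seq of the cochlea of 10 mtKeima mice was analysed, 5 NR and 5 Vehicle, grouped by the labels. As deposited by the authors, the files hold whole, unnormalized read counts, 1 file per sample, from total RNA after poly(A) selection. Per the labels and methods, reads were filtered, aligned to mm10 with STAR 2.6.1d and counted with featureCounts 1.5.0 in its default mode, which ignores strand. The submitters' notes also name fastp, CASAVA and DESeq2 1.26.0. The gene lengths in the files equal the union of exons in GENCODE M21 for all 9 genes. The reads were not analysed here.

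With edgeR 4.0.16 (R 4.3.3), genes were filtered by filterByExpr, scaled by TMM factors and tested with the quasi-likelihood test without covariates, with Benjamini-Hochberg adjustment over 18329 genes. DESeq2 1.42.0 was an alternative. CPM values are scaled by TMM factors. Two-sided exact permutation tests used log2 CPM with a prior count of 2. Replicates were checked pairwise for duplicates, and all 20 pairs within groups differed beyond counting noise. Intervals of 95% come from the edgeR fit. Figures were drawn with Python 3.11.15.

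The members and lists were chosen with earlier results of these data known. All 9 members are named. Of each pathway list, genes at an unadjusted p of 0.05, the gene with the highest level per kilobase and the one with the largest difference are named, and for each member the 2 genes most like it over the mice, of which 1 is not reported here. Of the marker lists, Ahsp was not matched, and of the pathway lists, March5 was matched by its identifier. Leaving out NR 3 and NR 5 together, and the principal transcript length, were chosen after the data were seen. Protein sequences were not used here.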

Additional observations from a re-analysis of the deposited data

Results flagged for a closer look

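Bnip3l in Vehicle 1, at 259 CPM, stood apart from its group. The other 4 Vehicle mice lay between 183 and 202 CPM, so that the gap from Vehicle 1 to its nearest neighbour took up most of the range of the group, beyond the 95% critical value of Dixon's test for 5 samples. Of 20 groups of values tested this way, this was the 1 that passed, and chance passes about 1 in 20. The Bnip3l difference between the groups was -0.14 on the log2 scale with this mouse and -0.04 without it, and neither passed (edgeR).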

How the results depend on the processing

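Under 17 alternatives (another tool, scaling, filter or dispersion, the replicate block, and samples left out), 0 of the 9 genes passed an unadjusted or adjusted p of 0.05, and the lowest unadjusted p was 0.0510, for Bnip3. Bnip3, Bnip3l, Optn and Sqstm1 kept their sign throughout. Estimates close to 0 changed sign. Fundc1 was 0.0013 with DESeq2, 0.024 with library size only, 0.013 on every gene with at least 1 read and 0.049 without NR 3 and NR 5, and Tbk1 was 0.018 with library size only and 0.0059 on every gene with at least 1 read. With each mouse left out in turn, the log2 fold change ran from -0.014 to 0.074 for Pink1, -0.045 to 0.054 for Fundc1, -0.083 to 0.0025 for Phb2, -0.0046 to 0.021 for Map1lc3b and -0.025 to 0.027 for Tbk1. Of the 98 pathway genes, the 5 calls became 8 (6 higher) with library size only and 3 (1 higher) without NR 3 and NR 5. Leaving out 1 mouse gave 2 to 10 calls, 1 to 5 of them higher and 1 to 6 lower. The total moved by over 1.5 times without NR 2 (9), NR 3 (2), Vehicle 1 (8), Vehicle 2 (10) or Vehicle 3 (2). Adm passed unadjusted in all 17, Map1lc3a in 16, Gabarapl1 and Epg5 in 12 and Tbkbp1 in 9. The adjusted p of Adm ran from 0.00559 with DESeq2 to 0.914 without NR 3 and NR 5. With the replicate number as a block, 4 of the 98 passed, 1 higher and 3 lower. Same-numbered mice deviated together with correlations of -0.22 to 0.17, and 2 of 10 mice correlated best with their own number. Each mouse had 5 mice of the other group to be matched with, so some best matches with the own number arise by chance. The correlations of differently numbered mice are not reported here, and the values given do not decide whether the numbers pair the mice. Over all tested genes, the 1780 unadjusted calls became 1153 without NR 3 and 843 without NR 3 and NR 5. Each of the 9 genes had at least 809 reads per mouse. The parts of depth and of the spread between mice in the width of the intervals were not tested.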

Other observations

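As a description with no test, the genes most like each of the 9 were sought by Pearson's r of log2 CPM over the 10 mice, after the mean of each group was subtracted, among 18320 genes. With so many genes and so few mice, high values of r arise for some gene in any case, and the mice share differences in tissue content. Bnip3l was most like St3gal5 (r = 0.98) and March5 (r = 0.96), the latter with its highest level in Vehicle 1 too. Phb2 was most like Ran (0.98) and Ddx4 (0.97), Sqstm1 like Pank4 (0.97) and A330009N23Rik (0.96), and Map1lc3b like Snora57 (0.97) and Gpank1 (0.96). Pink1 was most like Emc4 (0.96) and Igfals (0.96), Bnip3 like Npepps (0.95) and Ccdc149 (0.94), Fundc1 like Mtus1 (0.96) and Celf6 (0.96), Optn like Gm6249 (0.96), and Tbk1 like Zfp318 (0.95) and Ankrd23 (0.92). No gene of the 9 was among the genes compared, and March5 was the 1 gene of the 7 pathway lists among those named here.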
